A study of Mus musculus with 9 samples.

Results

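Lcn2, S100a8, S100a9, Cxcl1, Cxcl2, Saa3, Il1b, Nos2 and Chil3, 9 genes of acute inflammation, were followed through RNA sequencing of the whole main olfactory epithelium (MOE), the lining of the nose in which olfactory sensory neurons (OSNs) sit. The genes were selected on their measured values, because they are high in the library WT replicate 3, and they make up 9 of the 24421 genes with raw counts. All 9 passed the filter for testing (at least 10 counts summed over the libraries), as did 19775 genes in all. The mice were littermates at postnatal day 14, labelled C57BL/6, from 1 line made by injecting C57BL/6J zygotes, in which TAAR enhancer 2, a regulatory element of the trace amine-associated receptor (Taar) genes, had been deleted with CRISPR-Cas9. The study describes its mouse lines together as being on mixed C57BL/6J and 129 backgrounds. Wild type mice (WT), TAAR enhancer 2 +/- mice (het) and TAAR enhancer 2 -/- mice (homo) gave 3 libraries each, from 3 mice per genotype, and no other allele or agent is named for any group. Animals of both sexes were used, and the sex behind each library is not given in the sources used here.

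Inflammation of a mucosa starts when epithelial and resident immune cells sense damage or microbes and release cytokines such as interleukin-1 beta. This switches on nuclear factor kappa B (NF-kB) and C/EBP transcription factors, and the chemokines CXCL1 and CXCL2, made under their control, draw neutrophils out of the blood through the receptor CXCR2. Neutrophils carry large amounts of S100A8 and S100A9, while the epithelium itself secretes lipocalin-2 and serum amyloid A proteins. In the nose this lining also contains the OSNs and their sustentacular support cells.

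Total counts ran from 20527992 to 32262005 per library, with a median of 26174388. Levels are given as CPM, read counts divided by TMM-scaled library sizes, and a floor of 3 counts equals 0.0928 to 0.147 CPM. WT replicate 3 stood apart from the other libraries over all genes: 683 of 19775 genes, or 3.45%, were at least 2 times as high there as in the highest other library, against 9 to 143 genes in each other library. Because the 9 genes were chosen on these values, every statement on WT replicate 3 is a description with no test, and genotype results are given with and without it.

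The members lie on 5 mouse chromosomes (GRCm38, the build of mm10), all as protein-coding genes. S100a8 (chr3:90668978-90670035, plus strand) and S100a9 (chr3:90692632-90695721, minus strand) are neighbours 22.6 kb apart, and Cxcl1 (chr5:90891241-90893115) and Cxcl2 (chr5:90903871-90905938), both on the plus strand, are 10.8 kb apart. Chil3 (chr3:106147554-106167564, minus strand) lies elsewhere on chromosome 3. Lcn2 (chr2:32384633-32388252) and Il1b (chr2:129364570-129371139) are both on the minus strand of chromosome 2, Saa3 (chr7:46711998-46715700) is on the minus strand of chromosome 7, and Nos2 (chr11:78920787-78960254) is on the plus strand of chromosome 11. For 6 of the genes no 50-base stretch of their exons occurred in another gene. In Chil3 73.1% of such stretches were unique, the rest being shared with Chil4 and Gm6522, so its counts could be split between copies. In Cxcl2 94.2% were unique, the rest shared with Cxcl3, and in Saa3 96.4%.

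The 250 bases before the start of each gene were read from RefSeq promoters (GRCm38.p6) for the 8 members that have an entry, all but Nos2. The sequences of Cxcl1 and Cxcl2 are shown because these neighbouring chemokine genes, which share their 4 leading libraries, each hold an NF-kB motif. The motif is in capitals, and it is the same run of 11 bases in both.
Cxcl1 (chr5:90890995-90891244, plus strand): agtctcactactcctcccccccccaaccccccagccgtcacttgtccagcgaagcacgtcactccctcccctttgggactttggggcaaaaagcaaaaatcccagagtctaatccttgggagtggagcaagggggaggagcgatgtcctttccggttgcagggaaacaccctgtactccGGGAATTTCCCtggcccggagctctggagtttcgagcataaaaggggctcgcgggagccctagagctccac
Cxcl2 (chr5:90903649-90903898, plus strand): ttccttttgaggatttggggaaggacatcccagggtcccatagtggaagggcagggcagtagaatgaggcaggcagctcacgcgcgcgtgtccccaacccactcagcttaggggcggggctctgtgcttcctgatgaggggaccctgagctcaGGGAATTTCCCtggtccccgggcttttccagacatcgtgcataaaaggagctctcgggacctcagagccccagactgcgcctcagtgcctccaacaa
It ends 61 bases before the start of Cxcl1 and 87 bases before that of Cxcl2. The run reads as an NF-kB motif on both strands, which counts as 2 overlapping matches. The motif was found in 2 of the 8 member promoters, and in 7.01% of 27025 promoters of the same length. Lcn2, Saa3 and Il1b had the same 4 leading libraries in the same order, without a match of this motif. Saa3 is shown because its promoter holds 4 matches of a C/EBP motif (TTNNGNAA, searched on both strands, in capitals), the most of any member.
Saa3 (chr7:46715677-46715926, minus strand): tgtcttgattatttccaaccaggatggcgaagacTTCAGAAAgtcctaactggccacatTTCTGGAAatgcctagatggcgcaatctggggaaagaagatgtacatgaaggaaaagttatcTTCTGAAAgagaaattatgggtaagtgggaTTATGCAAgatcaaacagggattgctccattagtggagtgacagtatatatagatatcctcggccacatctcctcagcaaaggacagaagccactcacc
That motif was found in 7 of 8 member promoters, all but Cxcl1, and in 36.9% of all promoters. A TATA box (TATAAA) was found in the promoters of S100a8 and Il1b, against 13.0% of all promoters. These matches are a description of letters, not of binding.

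Lcn2 encodes lipocalin-2, a secreted protein that withholds iron from bacteria by binding their siderophores. It had the highest CPM of the members in WT replicate 3. Lcn2 was at 20.7, 134 and 1715 CPM in WT replicates 1, 2 and 3. It was at 19.8, 17.3 and 286 CPM in het replicates 1, 2 and 3, and at 18.9, 99.2 and 23.9 CPM in homo replicates 1, 2 and 3. The raw counts behind these values ran from 416 to 46528. So 5 libraries, found in all 3 genotypes, lay together near 20 CPM, WT replicate 2, homo replicate 2 and het replicate 3 were higher, and WT replicate 3 was 6.00 times the highest of the others and 76.7 times their median.

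Saa3 encodes serum amyloid A3, a protein of the acute-phase response that is made locally in many tissues. Its raw counts were 3, 108 and 936 in the WT libraries, 1, 1 and 150 in the het libraries and 3, 35 and 1 in the homo libraries, which makes 5 libraries at or under the floor. In CPM this was 34.5 in WT replicate 3, 5.94 in het replicate 3, 3.34 in WT replicate 2 and 1.26 in homo replicate 2, the same 4 libraries that led for Lcn2 and in the same order.

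S100a8 and S100a9 encode the subunits of calprotectin, a metal-binding protein that is abundant in neutrophil cytoplasm. S100a8 was at 6.08, 15.8 and 135 CPM in the WT libraries, at 7.24, 18.4 and 30.1 CPM in the het libraries and at 3.40, 38.1 and 17.5 CPM in the homo libraries. S100a9 was at 17.9, 42.1 and 397 CPM in the WT libraries, at 17.4, 46.5 and 85.5 CPM in the het libraries and at 9.66, 82.5 and 49.7 CPM in the homo libraries. Both genes thus stood less far above the other libraries in WT replicate 3 than Lcn2, to 8.12 and 8.95 times their median. The raw counts of the pair kept close to 1 ratio, with 2.17 to 2.94 S100a9 counts per S100a8 count in the 9 libraries (median 2.84). In contrast, the ratio of Lcn2 to S100a9 counts ran from 0.373 to 4.32.

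Cxcl1 and Cxcl2 encode chemokines that act on neutrophils through CXCR2. Cxcl1 was at 0.540, 5.47 and 37.5 CPM in WT, at 0.662, 0.680 and 17.0 CPM in het and at 0.317, 3.34 and 0.186 CPM in homo. Cxcl2 had 0, 89 and 4166 counts in the WT libraries, 0, 4 and 473 in the het libraries and 6, 64 and 0 in the homo libraries. A count of 0 allows up to 0.147 CPM in WT replicate 1, 0.142 CPM in het replicate 1 and 0.112 CPM in homo replicate 3. Cxcl2 reached 154 CPM in WT replicate 3 and 18.7 CPM in het replicate 3, and was at 2.75 and 2.296 CPM in WT and homo replicate 2. Of the pair, Cxcl1 stood 2.21 times above the next library and Cxcl2 8.20 times, and per kilobase of exon Cxcl2 was at 74.2 CPM in WT replicate 3 against 20.01 CPM for Cxcl1.

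Il1b encodes interleukin-1 beta, a cytokine that is released by activated myeloid cells and starts further cytokine production. Il1b was at 1.23, 11.2 and 306 CPM in WT, at 1.14, 2.34 and 33.6 CPM in het and at 1.41, 9.18 and 1.15 CPM in homo. WT replicate 3 was 9.11 times the highest of the others, and held 83.3% of the CPM summed over all libraries.

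Nos2 encodes the inducible nitric oxide synthase, which makes nitric oxide from arginine in activated macrophages and epithelium. Nos2 was at 1.28, 1.05 and 18.7 CPM in WT, at 1.18, 0.680 and 1.98 CPM in het and at 0.997, 1.22 and 0.892 CPM in homo. Its high value was confined to WT replicate 3 among these 9 libraries, 9.44 times the next library, while the other 8 spanned a 2.91-fold range.

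Chil3 encodes a chitinase-like lectin of myeloid cells, also known as Ym1. It was at 3.38, 7.70 and 35.4 CPM in WT, at 3.03, 12.6 and 15.01 CPM in het and at 1.22, 22.3 and 15.6 CPM in homo. Chil3 was the member that stood out least in WT replicate 3, at 1.59 times homo replicate 2. It is the only member that fell short of 2 times the highest other library, a limit that 8 of 9 members and 3.45% of all genes passed.

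**Figure D1:**
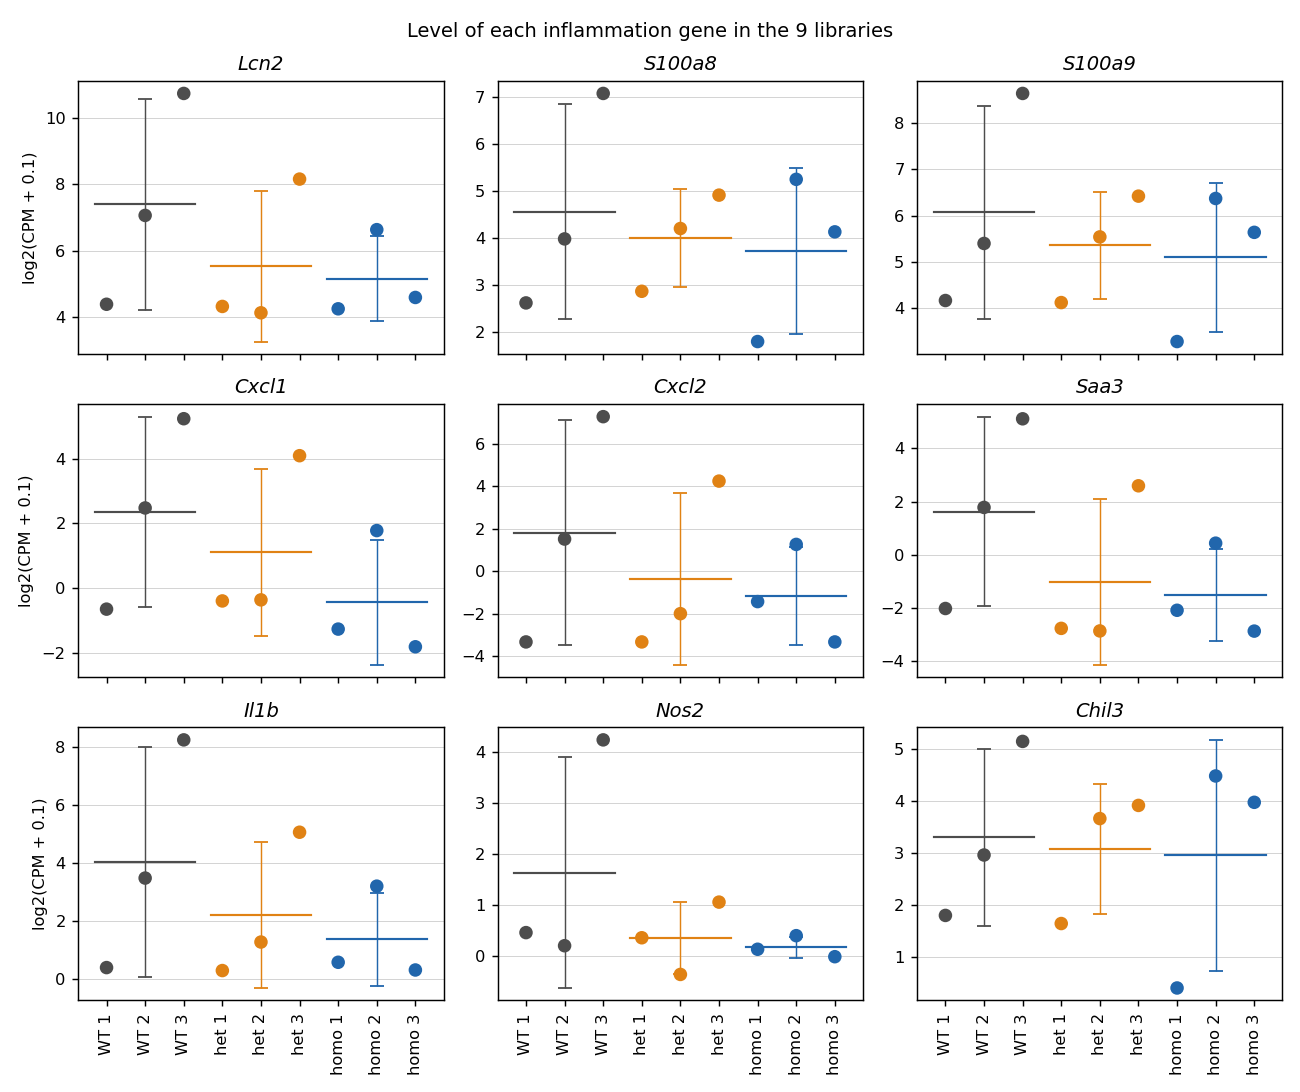
Level of each member, as log2(CPM + 0.1), in the 9 libraries by genotype. Points are libraries, horizontal lines the mean and vertical bars the SD of 3 libraries on the log2 scale. WT 3 is the highest point in all 9 panels, and het 3 is the next in 7 of them.

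Over the libraries the members fell into different orders. WT replicate 3 was highest for 9 of 9 genes. Het replicate 3 came next for Lcn2, S100a9, Cxcl1, Cxcl2, Saa3, Il1b and Nos2, and homo replicate 2 came next for S100a8 and Chil3. Het replicate 3 was also next for 452 of the 683 genes that stood at least 2 times above the others in WT replicate 3, or 66.2%, so this place was not particular to the members. For Lcn2, Cxcl1, Cxcl2, Saa3 and Il1b, WT replicate 2 was the third and homo replicate 2 the fourth library.

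S100a8, S100a9 and Chil3 had a further feature: each of the 3 libraries with replicate number 1 was below each of the other 6. The highest number 1 library and the lowest other library were at 7.24 and 15.8 CPM for S100a8, at 17.9 and 42.1 CPM for S100a9 and at 3.38 and 7.70 CPM for Chil3. The labels do not explain the numbers. The share of all genes with this order was not counted, so it is not shown to be particular to these members. Deviations from the group means over 16156 genes also correlated between the libraries with number 1. There r was 0.682 for WT with het, 0.807 for het with homo and 0.532 for WT with homo. The eosinophil granule gene Prg2 had the same order, at 0.227 to 0.331 CPM in the libraries with number 1 and at 4.51 to 20.2 CPM in the others. Prg2 is 1 of 7 listed mast cell and eosinophil markers, and how many of the rest had this order was not counted. The summed markers of mature neutrophils without Mmp9 had the order too, at 19.2 to 21.6 CPM against 35.7 to 495 CPM. With Mmp9 that order was lost. The sum was then 318 to 344 CPM with number 1, 721 CPM in WT replicate 3 and 197 to 257 CPM in the rest. Summed neutrophil precursor markers without Ltf overlapped, at 26.8 to 42.5 CPM with number 1 against 31.5 to 266 CPM in the others. The part of these cells in the members' values was not tested. In Lcn2, Cxcl1, Cxcl2, Saa3, Il1b and Nos2 the libraries with number 1 were not set apart in this way.

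**Figure D2:**
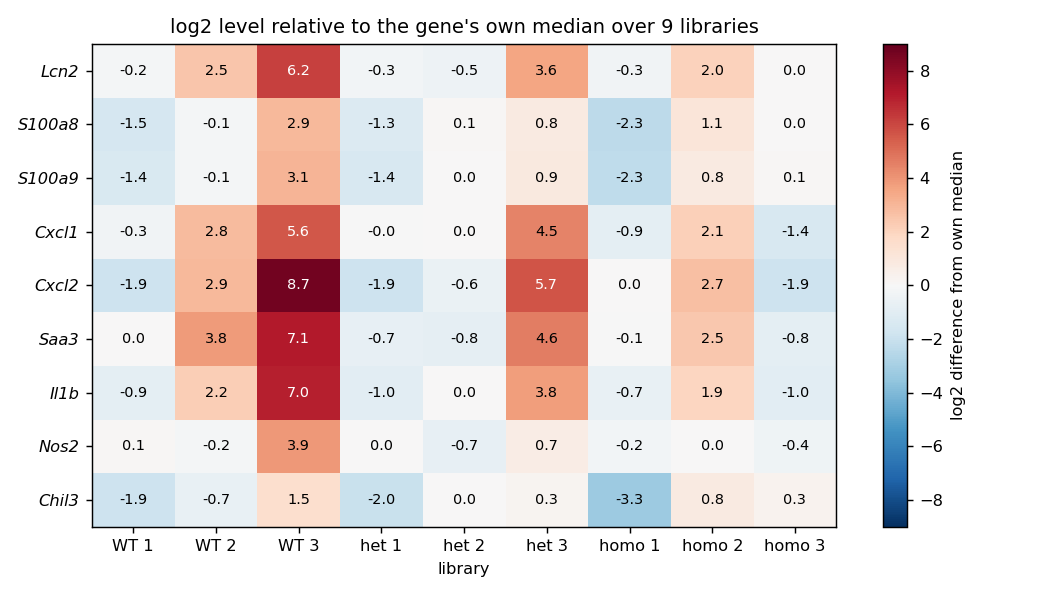
Each cell is the level of a member (row) in a library (column) on the log2 scale, with a prior of 0.1 CPM, minus the member's own median over the 9 libraries. The column WT 3 is the highest in every row, and S100a8, S100a9 and Chil3 are lowest in homo 1.

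Compared by genotype, the member means were highest in WT for all 9 genes and had a spread as large as the differences. Lcn2 averaged 623 ± 947 CPM over the WT libraries, 108 ± 154 over the het libraries and 47.3 ± 45.0 over the homo libraries (mean ± SD, n = 3 libraries). Il1b was at 106 ± 173, 12.4 ± 18.4 and 3.91 ± 4.56 CPM in the same order, and Cxcl2 at 52.1 ± 87.9, 6.30 ± 10.8 and 0.856 ± 1.25 CPM. Cxcl1 was at 14.5 ± 20.1, 6.10 ± 9.40 and 1.28 ± 1.78 CPM, and Saa3 at 12.7 ± 19.0, 2.01 ± 3.41 and 0.476 ± 0.677 CPM. S100a9 was at 152 ± 212, 49.8 ± 34.2 and 47.3 ± 36.5 CPM, and Nos2 at 7.004 ± 10.1, 1.28 ± 0.656 and 1.04 ± 0.167 CPM. For these 7 genes the order of the means was WT, het, homo. S100a8, at 52.3 ± 71.9, 18.6 ± 11.5 and 19.7 ± 17.4 CPM, and Chil3, at 15.5 ± 17.4, 10.2 ± 6.33 and 13.0 ± 10.8 CPM, had homo above het. No neighbours in these orders differed by more than the larger of their SDs, and WT replicate 3 alone made up between 76.1% (Chil3) and 98.2% (Cxcl2) of the WT sum.

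No member was called in any genotype contrast by edgeR's quasi-likelihood test over all genes (Benjamini-Hochberg adjusted p under 0.05 and a fold over 1.5), and every member's adjusted p rounded to 1. The share of all genes called was 0.0202% in homo against WT, 0% in het against WT and 0.00506% in homo against het, and also 0.00506% in the test for any genotype difference. At an unadjusted p under 0.05, 5 members passed in homo against WT, 1 in het against WT, 0 in homo against het and 1 in the test for any difference, beside 682, 253, 131 and 274 of the 19775 genes. The 5 became 1 with robust edgeR, 1 with the replicate number as a block and 0 with limma-voom. DESeq2 called no member either, and gave no p for Cxcl2 and Nos2. Members were lower by over 1.5-fold, at any p, in 8 of 9 cases in homo against WT, in 9 of 9 in het against WT and in 5 of 9 in homo against het, beside 9.2%, 7.66% and 5.04% of all genes. The contrasts with WT contain the values the members were chosen on, so nothing is read from those counts.

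Only homo against het does not compare with the WT libraries, although these still entered the shared estimate of the spread. There the log2 fold change was −1.18 ± 1.502 (SE) for Lcn2, −2.22 ± 1.67 for Cxcl1, −2.84 ± 2.39 for Cxcl2, −2.03 ± 1.97 for Saa3 and −1.64 ± 1.78 for Il1b. It was 0.08 ± 1.10 for S100a8, −0.07 ± 1.10 for S100a9, −0.30 ± 1.04 for Nos2 and 0.35 ± 1.02 for Chil3. The value exceeded its SE for Cxcl1, Cxcl2 and Saa3, lay closer to 0 than 1 SE for the other members, and passed the test for none. With the replicate number as a block, which pairs libraries by number in every genotype, the median of the members went from −1.18 to −0.016. Lcn2 was then at 0.32 ± 1.12 and Il1b at 0.17 ± 1.51, and Cxcl1, at −0.998 ± 1.42, was the farthest below 0. Without het replicate 3 no member was lower, and the values ran from 0.17 ± 1.23 for Nos2 to 3.40 ± 3.23 for Saa3, whose remaining het libraries held 1 count each.

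Leaving out WT replicate 3 changed the direction of many contrasts with WT. In het against WT all 9 members were then higher in het, with a median log2 fold change of 0.75, where with all libraries all 9 were lower with a median of −2.45. In homo against WT, 6 members remained lower, from −0.17 ± 0.45 for Nos2 to −1.88 ± 1.86 for Saa3, and S100a8, S100a9 and Chil3 were higher, at 0.83 ± 0.90, 0.64 ± 0.86 and 1.21 ± 1.01. None was called, beside 0.0051% of all genes in homo against WT and 0% in het against WT, and no member had an unadjusted p under 0.05 in either of these contrasts. The number of all genes called without WT replicate 3 depended on the model. In homo against WT it was 1 with edgeR, 15 with DESeq2 and 19 with the replicate block, and in het against WT 0, 10 and 4. In each, 0 members were called, but DESeq2 gave no p for 5 of the 9 members there. With the block the median of the members in het against WT was −0.044. With edgeR and het replicate 3 left out as well, 6 of 9 members were lower in het than in WT, with a median of −1.85.

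**Figure D3:**
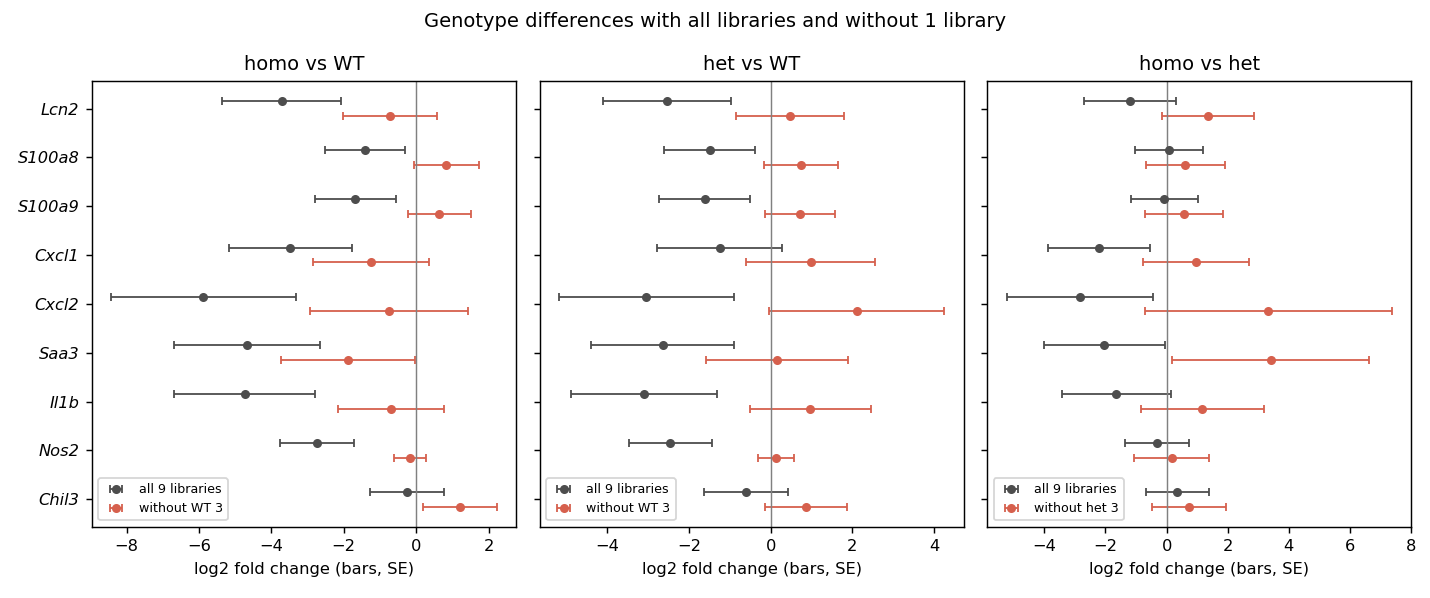
Log2 fold change of each member (points) with its SE (bars) from the edgeR fit over all genes, for the 3 genotype contrasts. Dark points use all 9 libraries and red points leave out WT 3 (left and middle) or het 3 (right). The red points lie to the right of the dark ones throughout.

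The wider pathways were described from lists of genes that are no members. In WT replicate 3, 73 of 100 tested genes on 9 pathway lists were at least 2 times the highest other library, against 3.45% of all genes. No gene of these lists was called in a genotype contrast. Among ligands of CXCR2 and their receptors, 3 of 5 genes passed this limit. Cxcl5, a further chemokine of this axis, was at 106 CPM in WT replicate 3 and at 10.1 to 31.2 CPM in the others, and the receptor gene Cxcr2 at 32.5 CPM against 2.35 to 7.60 CPM.

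In the interleukin-1 family with its receptors and inflammasome, 8 of 14 genes passed the limit. Il1r1, the signalling receptor of interleukin-1, was at 48.0 CPM in WT replicate 3 and at 17.9 to 21.9 CPM in the others. Il33, an alarmin that epithelial cells store in the nucleus, went the other way, with 71.6 CPM in WT replicate 3 and 128 to 160 CPM in the others. Of the other acute cytokines and monocyte chemokines 15 of 17 passed. Ptgs2, the inducible cyclooxygenase, was at 177 CPM against 2.70 to 31.4 CPM, and Ccl20 at 39.5 CPM against 1.09 to 17.7 CPM.

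Genes of NF-kB feedback, which encode inhibitors and subunits of this factor and its targets, passed in 12 of 14 cases. Their log2 ratios of WT replicate 3 over the median of the others ran from 0.509 to 4.05, with a list median of 2.23. The list median was 3.46 for the other acute cytokines and monocyte chemokines and 1.70 for the interleukin-1 family. Nfkbiz was at 158 CPM in WT replicate 3 against 36.7 to 67.8 CPM, while Sod2 was at 94.1 CPM against 60.8 to 68.6 CPM and did not pass. Of the acute-phase and mucosal defence genes that go with Lcn2 and Saa3, 15 of 16 passed. Reg3g, which encodes an antibacterial lectin, was at 1674 CPM against 195 to 808 CPM, and Pigr, the transporter of secretory antibodies, at 1388 CPM against 22.3 to 230 CPM.

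Receptors of the member proteins differed among themselves, and 3 of 8 passed. Tlr4, a receptor of S100A8 and S100A9, was at 38.8 CPM in WT replicate 3 against 12.0 to 26.1 CPM, whereas Slc22a17, the lipocalin-2 receptor, was at 82.4 CPM against 82.8 to 134 CPM. Around Nos2, 3 of 8 genes of nitric oxide and arginine metabolism passed (Arg1, Arg2 and Gch1), and Nos1, the neuronal synthase, was lower at 3.46 CPM against 5.39 to 9.18 CPM. Among the chitinase-like genes, 1 of 4 passed: Chil1 was at 876 CPM against 8.07 to 165 CPM. Chil4, the close copy of Chil3, was at 3.21 CPM in WT replicate 3 and at 2.58 to 128 CPM in the others, highest in homo replicate 2.

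Interferon response genes also passed in 16 of 18 cases. Ifit1 was at 151 CPM in WT replicate 3 against 16.2 to 32.4 CPM and Oasl2 at 224 CPM against 14.2 to 66.7 CPM. In this list het replicate 3 was second for 7 of 18 genes, and in the acute-phase list for 13 of 16. At an unadjusted p under 0.05, by edgeR, there were 15 of the 18 interferon genes in homo against WT, 12 in het against WT and 0 in homo against het. Without WT replicate 3 the number was 0 in each of these contrasts, so the counts rest on that library.

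**Figure D4:**
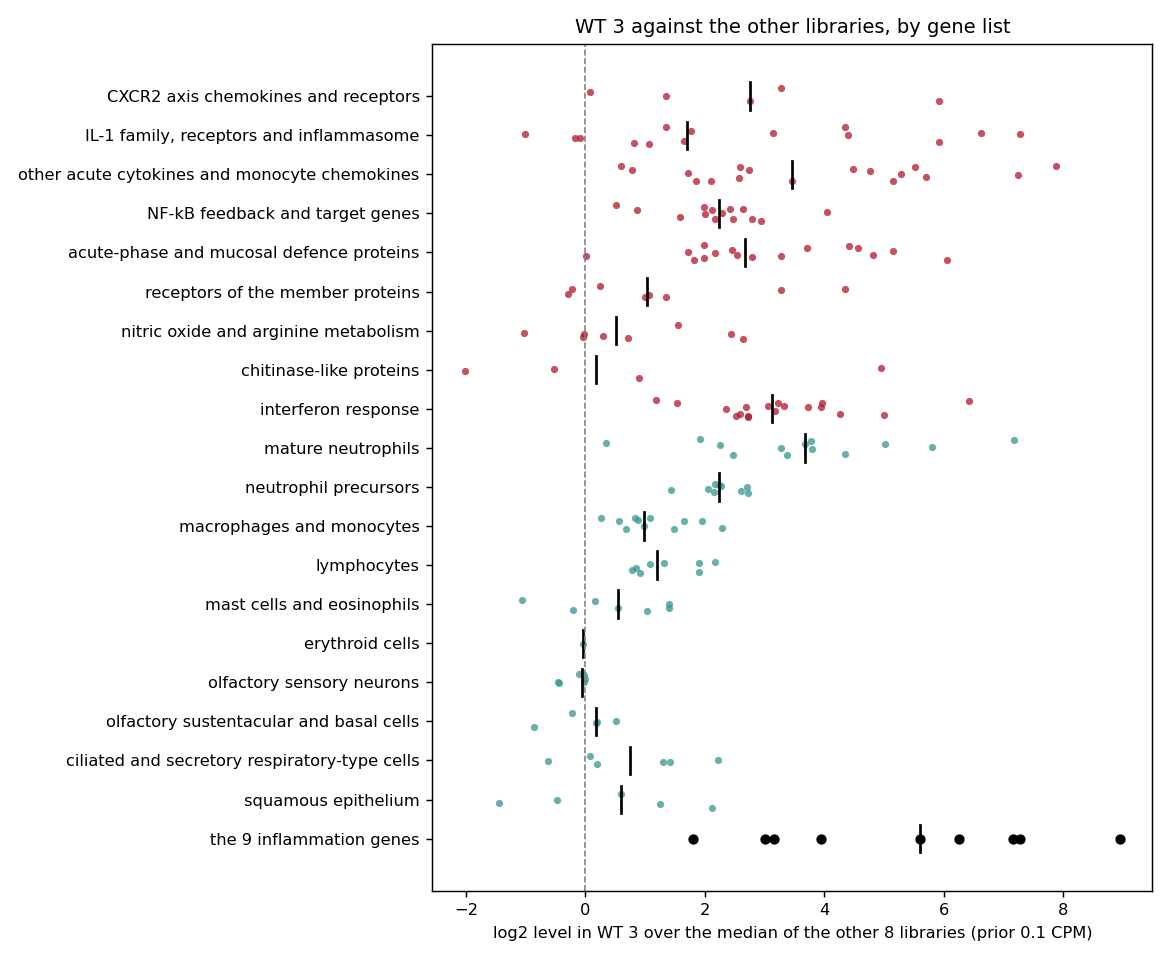
Log2 of the level in WT 3 over the median of the other 8 libraries, with a prior of 0.1 CPM, for genes of the pathway lists (red) and cell type marker lists (green) that are no members, and for the 9 members (black). Bars are list medians and the dashed line is the median of all tested genes, 0. Markers of mature neutrophils lie to the right, and those of OSNs lie near the dashed line and to its left.

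Markers of neutrophils were high in the same library as the members, and their part in the members' values was not tested. Of 13 markers of mature neutrophils, 12 were at least 2 times as high in WT replicate 3 as in the highest other library, the exception being Mmp9. The summed level of the 13 ranged from 210 to 721 CPM in WT, from 229 to 318 CPM in het and from 197 to 344 CPM in homo. Mmp9, at 156 to 325 CPM, made up most of these sums outside WT replicate 3, and without it the sum was 495 CPM in WT replicate 3 and 19.2 to 91.9 CPM in the others. The defining receptor gene Csf3r was at 160 CPM in WT replicate 3 against 9.66 to 28.6 CPM. Ly6g was not analysed here. In bulk tissue, more cells of a type and more RNA per cell cannot be told apart.

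Of the neutrophil precursor markers, 7 of 9 passed, and their summed level ranged from 611 to 2987 CPM in WT, 365 to 866 CPM in het and 222 to 678 CPM in homo, most of it from Ltf, which glands also express. Of the macrophage and monocyte markers 3 of 11 passed (Adgre1, Lyz2 and Ly6c2), of the lymphocyte markers 4 of 8, and of the mast cell and eosinophil markers 0 of 7. The erythroid genes Hba-a1, Hba-a2, Hbb-bs and Hbb-bt were listed at 0 in all libraries, and Alas2 was at 14.7 to 27.6 CPM. As the handling of multi-mapping reads is not given, the values at 0 are not read as absence of erythroid RNA.

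The markers of the tissue itself were present in every library. None of 6 OSN markers passed the limit, and Omp, the mature OSN marker, was at 2110.3 CPM in WT replicate 3 against 1999 to 2388 CPM. That limit counts only higher levels. The log2 ratio of WT replicate 3 over the median of the others was negative for all 6, from −0.456 to −0.0061. For 1 of them WT replicate 3 was the lowest library. None of 5 sustentacular and basal cell markers passed, but Cyp2g1, an enzyme of sustentacular cells, was at 1117 CPM in WT replicate 3 against 1830 to 2342 CPM. In respiratory-type cells 2 of 6 passed, Muc5b at 2401 CPM against 433 to 675 CPM and Agr2 at 434 CPM against 137 to 208 CPM, both genes of mucus secretion. Of the squamous markers 0 of 5 passed.

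The genes whose pattern over the 9 libraries was most like the members' median pattern were found among 16962 genes with at least 1 CPM in some library. The measure was the root mean square difference of log2 levels after each gene's median was subtracted, so a smaller value is more alike. Clec4d was nearest at 0.371, followed by Lilr4b at 0.426, Orm1 at 0.509, Ccl20 at 0.564 and Slfn4 at 0.575. Il1f9 (0.617), Il1a (0.631), Olr1 (0.657), Tnf (0.669) and Il1rn (0.678) completed the nearest 10. Of the members themselves, Lcn2 at 0.453 and Il1b at 0.505 were closest to the median pattern, and Chil3 at 2.28 was farthest. Clec4d was at 55.9 CPM in WT replicate 3, 6.57 CPM in het replicate 3, 3.87 CPM in WT replicate 2 and 2.94 CPM in homo replicate 2, with the others at 0.331 to 0.944 CPM, the same order of the leading 4 libraries as in Lcn2.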

How the data were processed

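RNA sequencing was done on whole MOE, with total RNA made into directional libraries after polyA selection. Per the labels, 9 libraries fall into 3 genotypes. Deposited are the authors' raw counts of reads for each gene, made with HISAT2 2.1.0 on mm10 and featureCounts (Subread 1.6.2) after Trimmomatic 0.36, as the submitters' processing notes and the methods name them. They also deposited a signal, normalized counts made with DESeq2 1.20.0, in which each raw count is divided by 1 size factor per library (0.806 to 1.28, checked). The annotation release, the strandedness setting and the handling of multi-mapping reads are not given in the sources used here.

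Raw counts of 19775 genes with at least 10 counts over 9 libraries were tested in R 4.3.3 with edgeR 4.0.16 and its quasi-likelihood test (TMM, genotype as the term, 2-sided). All genes were fitted and adjusted together, and calls needed an adjusted p under 0.05 and a fold over 1.5. The fits were tested on simulated data. Alternatives were other normalizations and filters, robust edgeR, limma-voom (limma 3.58.1), DESeq2 1.42.0, a replicate block, a term for replicate number 1, and leaving libraries out. The members, lists, tests and motifs were chosen with earlier results of these data known. Named list genes are up to 4 with the highest median CPM per list, markers at 0 and the 10 of closest pattern. Arg1, Arg2, Gch1, Adgre1 and Ly6c2 were named after their values were seen. Il36a, Il36b and Il36g were matched as Il1f6, Il1f8 and Il1f9, and Il36rn was not analysed here. Coordinates come from GENCODE M21 on GRCm38.

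Replicates of a genotype differed by a chi-square of 7.60 to 108 per gene, so none was a repeat of another. The study states 3 mice per genotype. Deviations from the group means over 16156 genes were correlated between libraries. At the same number, r was 0.682, 0.457 and 0.586 for WT with het and 0.807, 0.360 and 0.195 for het with homo. For WT with homo it was 0.532, 0.320 and −0.0854. Different numbers gave −0.748 to 0.0605 for WT with het, −0.731 to 0.583 for het with homo and −0.570 to 0.531 for WT with homo. Het replicate 2 with homo replicate 3 (0.583) and het replicate 3 with homo replicate 2 (0.527) exceeded their same-number pairs. So numbers 2 and 3 did not match het with homo. At a limit of 0.1 for each same-number pair, WT with het and het with homo passed, and WT with homo did not. The main fit had genotype as its only term and paired no libraries. The replicate block, an alternative, paired libraries by number in every genotype, so WT with homo as well. Floors cover counting error only, as the reads carry no molecular identifiers and may be copies of each other.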

Additional observations from a re-analysis of the deposited data

How the results depend on the processing

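The members called numbered 0 in every contrast under every alternative run. DESeq2 gave no p for 2 members with all libraries and for 5 without WT replicate 3. The count of members at least 2 times above the other libraries in WT replicate 3 was 8 with either other scaling. It was 9 at a limit of 1.5 times and 6 at a limit of 4 times. Of 755 alternative values for 47 results, 683 kept their direction and stayed close, 28 moved and 44 reversed. Leaving out 1 library at a time, the log2 fold change in homo against WT ranged from −4.87 to −0.72 for Lcn2, −2.32 to 0.83 for S100a8, −2.36 to 0.64 for S100a9, −5.86 to −1.25 for Cxcl1, −8.66 to −0.74 for Cxcl2, −7.19 to −1.88 for Saa3, −6.38 to −0.69 for Il1b, −3.27 to −0.17 for Nos2 and −0.87 to 1.21 for Chil3. In het against WT it ranged from −5.07 to 0.47 for Lcn2, −2.02 to 0.75 for S100a8, −2.25 to 0.72 for S100a9, −4.43 to 0.98 for Cxcl1, −9.21 to 2.11 for Cxcl2, −8.08 to 0.16 for Saa3, −5.91 to 0.97 for Il1b, −2.96 to 0.14 for Nos2 and −1.04 to 0.86 for Chil3. In homo against het it ranged from −2.34 to 1.35 for Lcn2, −0.83 to 0.62 for S100a8, −0.75 to 0.57 for S100a9, −4.62 to 0.95 for Cxcl1, −5.63 to 3.33 for Cxcl2, −4.55 to 3.40 for Saa3, −3.29 to 1.16 for Il1b, −0.62 to 0.17 for Nos2 and −0.28 to 0.88 for Chil3. Of the reversals, 32 came from leaving out WT replicate 3, het replicate 3 or both, 6 from leaving out another library and 6 from another model. Without both, an alternative chosen after seeing the data, homo against WT gave 0.83 for S100a8, 0.65 for S100a9 and 1.22 for Chil3. Het against WT gave 0.22, 0.079 and 0.48 for the same genes. The other 6 of 9 members were lower in both contrasts, with a median over the 9 of −0.68 in homo and −1.85 in het. In het against WT 1 member had an unadjusted p under 0.05 by edgeR, beside 196 of 19397 genes. Homo against het then gave 1.35 for Lcn2, 0.57 for S100a9, 0.95 for Cxcl1, 3.33 for Cxcl2, 3.39 for Saa3, 1.16 for Il1b and 0.17 for Nos2. With the replicate block, homo against het was 0.32 for Lcn2, −0.0012 for S100a8 and 0.17 for Il1b, and the block changed no call of a member. With a term for replicate number 1 it was −0.22 for S100a8, and with limma-voom −0.23 for S100a8 and −0.082 for Chil3. The cause of these reversals was not tested. Over all genes, homo against WT had 4 calls, 1 with limma-voom and 0 with replicate numbers 2 and 3 only, and 1 to 4 leaving out 1 library. Homo against het had 1 call, 4 with library totals, 4 with no filter, 5 with DESeq2, 3 with the block, 3 with the term for number 1 and 0 with numbers 2 and 3 only, and the test for any difference had 1, 6 with DESeq2, 3 with the block, 3 with the term and 0. Within numbers 2 and 3, the log2 ratio of WT replicate 3 over the median of the others was 4.11 for Lcn2, 3.45 for Cxcl1, 6.00 for Cxcl2, 4.67 for Saa3 and 5.04 for Il1b, against 6.26, 5.61, 8.95, 7.16 and 7.28 with all libraries. Against the other WT libraries only it was 4.47 for Lcn2 and 4.23 for Saa3, and with a prior of 1 CPM it was 3.22 for Nos2. Depth limits Cxcl2 and Saa3, which have 3 and 5 libraries at or under 3 counts.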
